A study of Mus musculus with 24 samples.

Results

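The gammaB8 line is 1 of 11 lung tumour cell lines grown from transgenic mice, and its RNA was measured on 3 of the 24 mouse gene expression arrays. The 3 arrays were taken by their titles: 1 carries the line's name alone and is called unnumbered below, and the others are replicates 1 and 2. They were set against 19 arrays of the other 10 tumour lines: A2B1, A2C12, B3, betaD5, betaD10, cRAF_cMYC, gammaA3, gammaA7, gammaD1 and gammaD12. The titles and the culture notes name the line gammaB8, while the cell-line field of the same 3 records reads gammaA8. All 11 lines came from lung tumours of 8-month-old mice that carried both a c-myc and a c-raf transgene, so the genotype, the age and the culture (DMEM with 10% fetal calf serum, weekly passages) are shared by every tumour array. The remaining 2 arrays measured alveolar type II cells freshly isolated from healthy mice without the transgenes, called control cells below. The promoter of the transgenes and the sex of the donor mice are not given in the labels read here. Nor do the labels say whether the repeat arrays of a line came from separate cultures, so each p-value below measures only the spread between these arrays.

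c-Myc switches on genes of cell growth, ribosome assembly and nucleotide synthesis. Type II cells are the surfactant-making epithelium of the lung alveolus, and the pleura around the lung is lined by mesothelial cells, which make mesothelin, uroplakin 3B, simple keratins and the transcription factor WT1.

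The surfactant protein genes that define type II cells were dim on all 3 gammaB8 arrays. Surfactant protein C (Sftpc) read 39.3 on the unnumbered array, 9.20 on replicate 1 and 21.7 on replicate 2, against 786 and 11196 in the control cells. The signals of 10 type II genes summed to 251, 207 and 275 on the unnumbered array and replicates 1 and 2, against 159 to 333 on the other tumour arrays and 4266 and 36938 in the control cells. No type II gene was above its array's median signal on all 3 gammaB8 arrays, and 2 of the 10 (Lpcat1 and Muc1) were above it on at least 1. Of 16 fibroblast genes the summed signal was 21670, 18084 and 15183 in gammaB8, within the 5138 to 26524 of the other tumour arrays, and 5291 and 3454 in the control cells. Most of that sum came from Col1a1, Col1a2 and Dcn. Of the 16 genes 5 were above their array's median on all 3 gammaB8 arrays and 7 on at least 1, and Thy1 read 2.99, 6.92 and 8.98. In bulk RNA of this kind, fewer cells of a type and less RNA per cell cannot be told apart. The control cells also carried 59403 and 36771 of summed myeloid marker signal, against 1415, 1878 and 1908 in gammaB8, so they serve for orientation and enter no test. The median signals of the gammaB8 arrays were 59.3, 64.6 and 64.4, within the 53.2 to 75.5 of the other tumour arrays, and their actin 3′ to 5′ ratios, a sign of intact RNA, were 1.18, 1.24 and 1.15, within the 1.03 to 1.32 of the others.

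Before any gene is compared, some arrays have to be set apart. Within gammaB8, replicates 1 and 2 differed at least 2-fold at 63 of 7215 probe sets, which was 0.873% of them (Spearman 0.976). The unnumbered array differed from replicate 1 at 550 probe sets (7.62%) and from replicate 2 at 558 (7.73%), with a Spearman coefficient of 0.923 each time. The array most like the unnumbered gammaB8 array was of another line: gammaA3 and betaD10 each gave 0.963, with 189 and 172 probe sets 2-fold apart. Unnumbered and numbered arrays also stood apart in the other lines, by 208 and 233 probe sets in A2C12, 265 and 292 in B3, 251 and 436 in cRAF_cMYC, 335 and 634 in gammaA7 and 939 in A2B1. In the records of gammaA7 and cRAF_cMYC the numbered arrays went together across the 2 lines. Replicate 1 of gammaA7 differed from replicate 1 of cRAF_cMYC at 34 probe sets, and replicate 2 from replicate 2 at 33, as few as between repeat arrays of 1 line elsewhere. Within gammaA7 the 2 replicates were 428 probe sets apart and within cRAF_cMYC 436. Of 17 tumour arrays from lines with 2 or 3 arrays, 9 had their nearest array in their own line. The labels were kept as given, and values without gammaA7 and cRAF_cMYC stand beside the results they change.

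**Figure D1:**
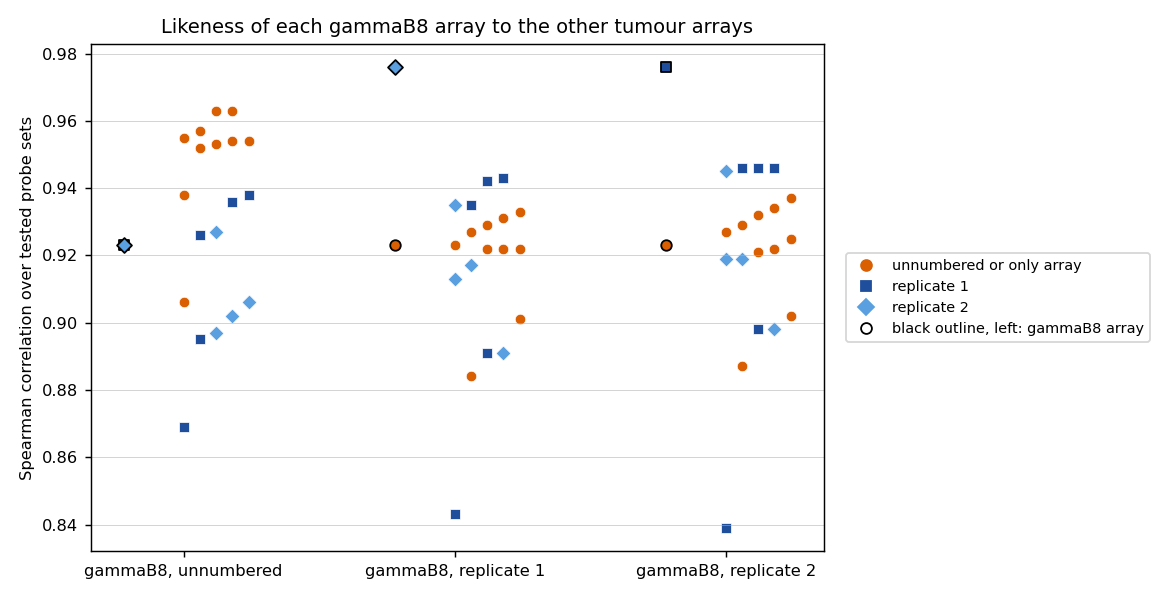
Spearman coefficients (y axis, unitless, over 7215 probe sets) of each gammaB8 array, along the x axis, with every other tumour array, the other gammaB8 arrays outlined in black. The unnumbered gammaB8 array reaches 0.963 with gammaA3 and betaD10, above the 0.923 it has with both numbered gammaB8 arrays.

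Across all 22 tumour arrays, gammaB8 differed from the mean of the other 10 lines at few genes. The differences were computed on log2(signal + 32), a scale that understates the change of dim genes, and a probe set was called where it differed by 2-fold or more with an adjusted p under 0.05. Of 7215 probe sets 7 were called (0.097%), 2 higher (0.0277%) and 5 lower (0.0693%) in gammaB8, and 813 had an unadjusted p under 0.05. The count was 0 without gammaB8 replicate 1 or 2 and 102 without the unnumbered gammaB8 array, and it was 3, 11 and 12 without the lines A2C12, gammaA7 and cRAF_cMYC. Taken as 1 probe set a gene, the brightest, 4 of 5496 genes were called (0.0728%): Prdx4, Ndn and Htra1 fell (0.0546%) and Abcg2 rose (0.0182%). The spread behind these tests comes from the 6 lines with repeat arrays, since 5 lines have 1 array each. The stretches around the transcription starts of the 2 genes with the largest falls are given here to show what kind of promoter each has. Both are GRCm38.p6 sequence from RefSeq, 250 bases before to 50 after the start, read 5′ to 3′ along the gene, with each CG dinucleotide in capitals. Prdx4 lies on the minus strand (chrX:155338411-155338710) and Ndn on the plus strand (chr7:62348027-62348326).
Prdx4: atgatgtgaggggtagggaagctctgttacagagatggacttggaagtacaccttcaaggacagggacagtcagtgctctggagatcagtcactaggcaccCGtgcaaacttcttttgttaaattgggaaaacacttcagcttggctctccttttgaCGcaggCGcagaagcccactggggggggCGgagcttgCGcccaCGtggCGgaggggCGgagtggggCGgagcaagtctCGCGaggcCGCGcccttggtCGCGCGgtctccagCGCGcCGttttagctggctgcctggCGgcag
Ndn: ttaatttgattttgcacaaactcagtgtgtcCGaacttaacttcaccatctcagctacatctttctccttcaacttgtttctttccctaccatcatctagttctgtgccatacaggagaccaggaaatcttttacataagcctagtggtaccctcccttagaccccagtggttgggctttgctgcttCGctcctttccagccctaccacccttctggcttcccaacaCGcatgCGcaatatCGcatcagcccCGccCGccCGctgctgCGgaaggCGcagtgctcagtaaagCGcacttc

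The Prdx4 window holds 20 CG dinucleotides, and 26.5% of the 32851 promoter windows in the table hold at least as many. The Ndn window holds 11, a number reached by 41.4% of windows. CG dinucleotides are the bases at which mammalian DNA is methylated, but methylation was not measured here, and the counts describe the sequence alone.

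Prdx4 encodes peroxiredoxin 4, an enzyme of the endoplasmic reticulum that uses hydrogen peroxide to form disulfide bonds in newly made proteins. Its signal was 519.7 on the unnumbered gammaB8 array, 68.4 on replicate 1 and 26.6 on replicate 2. The 19 arrays of the other lines ran from 559.6 to 1176 with a median of 839, and the control cells read 366 and 371. All 3 gammaB8 arrays lay below all 19 others, the unnumbered one only just and the numbered ones by far. The difference from the other lines was −2.58 (log2, SE 0.41), with an adjusted p of 0.0151. It was −3.44 (SE 0.21, adjusted p 0.000126) between numbered arrays of gammaB8 and of 5 lines, but −0.74 between the unnumbered gammaB8 array and those of all 10 lines. That last comparison, made with limma, sets 1 gammaB8 array against 10, assumes that it varies as the others do, and called 0 of 7215 probe sets, with 192 at an unadjusted p under 0.05, so this count cannot be read against that of the numbered arrays. When each line entered as 1 mean, Prdx4 was the 1 probe set called (0.0139%), a call lost without gammaB8 replicate 2 (adjusted p 0.0504). The call over all arrays was lost without gammaB8 replicate 1 (−2.30, adjusted p 0.352), without replicate 2 (−1.91, adjusted p 0.200) and without the A2C12 line (−2.58, adjusted p 0.0776).

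Ndn encodes necdin, a growth-restraining protein of the MAGE family read from the paternal copy of the gene only. Its brighter probe set gave 14.1 on the unnumbered gammaB8 array, 9.69 on replicate 1 and 27.9 on replicate 2, against a lowest of 7.34, a median of 175 and a highest of 505 on the other 19 arrays. The control cells read 105 and 76.8. All 3 gammaB8 arrays were near the floor, with the unnumbered array and the numbered ones alike, and the groups overlapped because A2C12 and gammaA3 were as dim. A2C12 read 33.1, 7.34 and 39.2, and gammaA3 read 16.4. The difference was −1.75 (SE 0.24, adjusted p 0.00577), and a second probe set gave −1.99 (SE 0.28) with the same adjusted p. On the numbered arrays it was −1.79 (SE 0.23, adjusted p 0.00264), and the unnumbered array lay 1.91 below the other unnumbered arrays. Without gammaB8 replicate 1 the difference was −1.64 (adjusted p 0.117) and without replicate 2 −1.90 (adjusted p 0.076), so the call needed both.

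Htra1, a secreted serine protease that cuts matrix proteins, read 82.7, 97.7 and 113 on the unnumbered array and replicates 1 and 2 of gammaB8. The other 19 arrays ran from 119 to 1361 with a median of 403, and the control cells gave 306 and 277. The gammaB8 arrays were alike and lay below every other tumour array. Htra1 fell by 1.68 on the log2 scale (SE 0.30, adjusted p 0.0395) against all 10 lines, and by 1.98 (SE 0.25, adjusted p 0.00232) on the numbered arrays. The unnumbered array was 1.72 below the other unnumbered arrays on that scale. The size hardly changed when an array was left out, but the adjusted p was near the threshold. It was 0.352 and 0.227 without gammaB8 replicate 1 and 2, 0.17 without the A2C12 line, and between 0.0507 and 0.0730 without 1 of 10 other arrays, which were both arrays of A2B1, replicates 1 and 2 of A2C12 and of B3, the unnumbered array and replicate 1 of cRAF_cMYC, replicate 2 of gammaA7 and the gammaD12 array.

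Abcg2, a membrane pump that exports drugs and dyes, rose. Its signals were 432, 642 and 699.7 in gammaB8, against a lowest of 47.2, a median of 262 and a highest of 619 on the other 19 arrays, and 321 and 72.7 in the control cells. The gammaB8 arrays were near the top of the tumour arrays and overlapped with B3 alone, whose line mean was 604. The difference was 1.11 (SE 0.15, adjusted p 0.00577) against all 10 lines and 1.28 (SE 0.14, adjusted p 0.00126) on numbered arrays. The unnumbered array was 0.74 higher than the other unnumbered arrays. Without gammaB8 replicate 1 or 2 the difference was 1.04 or 0.98 (adjusted p 0.117 and 0.14), and without the A2C12 line 0.91 (adjusted p 0.0776). A further called probe set was the dimmer one of Ank3, which encodes ankyrin-G, the adaptor between membrane proteins and the spectrin skeleton. It read 17, 4.93 and 2.86 in gammaB8, against 21.8 to 122 on the other tumour arrays (−1.17, SE 0.17, adjusted p 0.00577), while the brighter Ank3 probe set, at 63.5, 42.6 and 34.1, was not called. The last called probe set is paired with several gene symbols and is left unnamed; it read 1216, 1348 and 1524 in gammaB8 (1.01, SE 0.19, adjusted p 0.0487). Gsto1, a glutathione transferase of the omega class, passed the p threshold at 2577, 2443 and 2439, but its difference of −0.73 (adjusted p 0.0395) was under 2-fold.

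**Figure D2:**
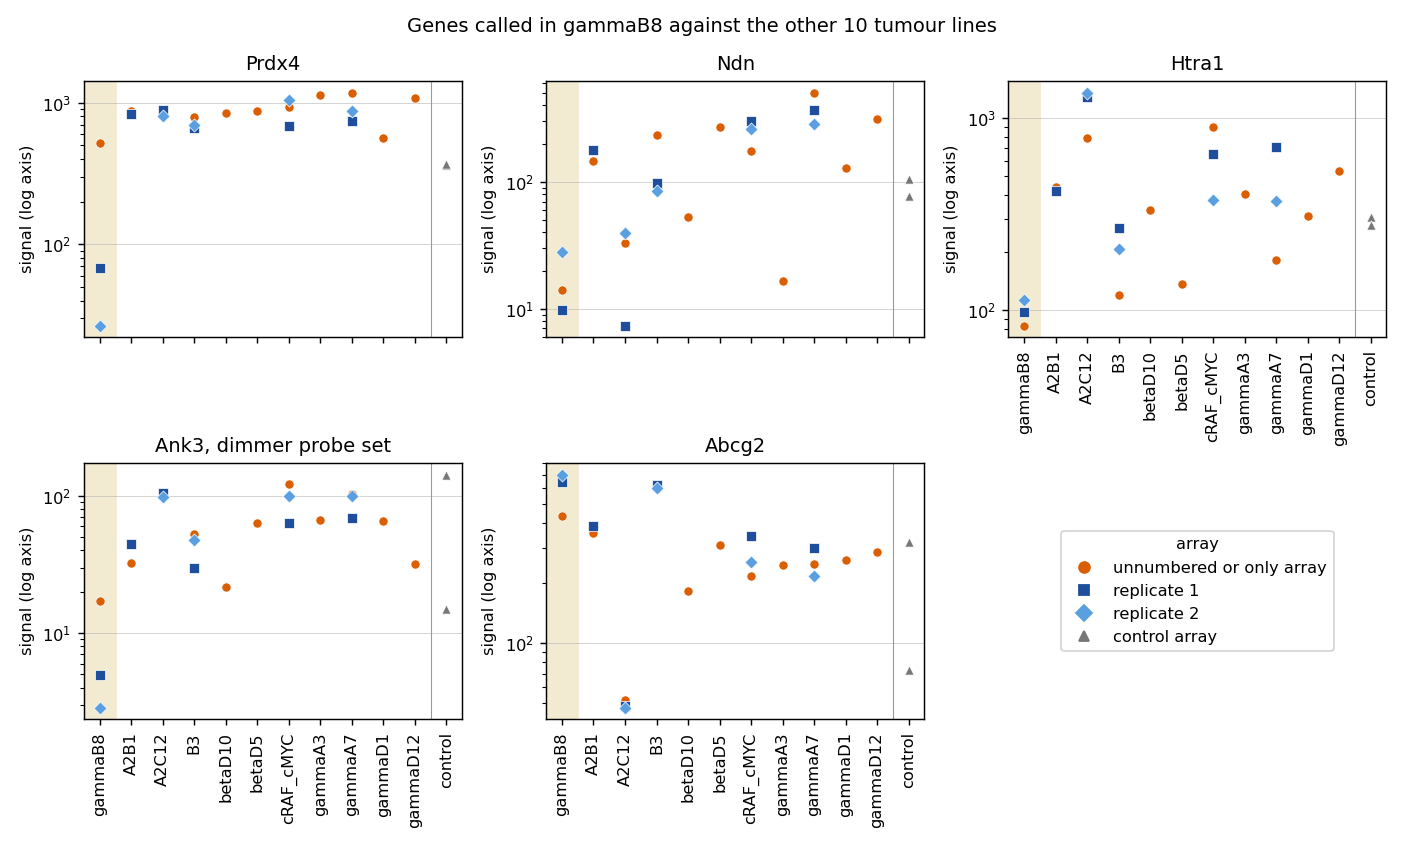
Signal (y axis, log scale, array units) of the called genes Prdx4, Ndn, Htra1 and Abcg2 and of the dimmer Ank3 probe set on every array, with gammaB8 shaded at the left, the other lines along the x axis and the control cells at the right. For Prdx4 the unnumbered gammaB8 array stands at 519.7, just under the lowest other tumour array at 559.6, and replicates 1 and 2 stand at 68.4 and 26.6.

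For 8 genes all 3 gammaB8 arrays lay outside the range of the other 19, above it for 5 genes (0.091% of 5496) and below it for 3 (0.0546%). Below were Prdx4, Htra1 and Fzd4, a receptor for Wnt proteins and norrin. Fzd4 read 105, 88.4 and 94.6 in gammaB8, against 123 to 441 elsewhere, a difference of −0.74 with an adjusted p of 0.249. Above were Romo1, a small protein of the inner mitochondrial membrane, the chromatin remodeller Smarcad1, the adaptor Pstpip1, the membrane protein Phtf2, and glyoxalase 1 (Glo1), which clears methylglyoxal made in glycolysis. Romo1 read 3153, 3809 and 3202 in gammaB8, against 1521 to 2990.5 on the other arrays. Smarcad1 read 169, 195 and 188, against 83.2 to 160.3. Glo1 read 886, 1048 and 916, against 484 to 882. These genes moved little but evenly: the differences of the 5 were 0.39 (Glo1) to 0.75 (Pstpip1), and none of the 5 was called over all arrays, with adjusted p-values of 0.0808 to 0.27.

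Cd34, chosen after its values were seen, was low on all 3 gammaB8 arrays. It encodes a sialomucin of blood progenitors, vessel lining and some stromal cells. Its signals were 5.80 on the unnumbered gammaB8 array, 6.70 on replicate 1 and 23.6 on replicate 2, against a lowest of 11.1, a median of 444 and a highest of 1389 on the other 19 arrays, and 157 and 92.3 in the control cells. Only replicate 1 of cRAF_cMYC (11.1) and of gammaA7 (20.7) came as low, so the groups overlapped, while replicate 2 of those lines gave 1160 and 1053. The difference of −3.62 (SE 0.81) had an adjusted p of 0.112 with all lines, and with the array number as a block it was −3.83 with an adjusted p of 0.0462. Without cRAF_cMYC and gammaA7, whose replicates disagree, it was −3.91 (SE 0.29, adjusted p 0.000107), and −3.73 at its second probe set (SE 0.31, adjusted p 0.000141). That setting was chosen after the data were seen and takes out the only arrays as low as gammaB8, so these p-values cannot be read as a separate test.

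Without those 2 lines 20 of 7215 probe sets were called (0.277%), among them all 7 named above, and 11 of 5496 genes (0.2%). Prdx4, Ndn, Htra1 and Abcg2 were again among them. The others, beside Cd34, were chosen after their values were seen. Edn1, the vessel-constricting peptide endothelin 1, read 295, 565 and 663 in gammaB8, against 2.74 to 325 on all 19 other arrays (1.43, SE 0.22, adjusted p 0.0209). Adcy7, an enzyme that makes cyclic AMP, read 338, 475 and 723, against 51.8 to 404 (1.51, SE 0.26, adjusted p 0.0283). For both genes the unnumbered gammaB8 array fell inside the range of the other lines and the numbered arrays lay above it. Pkp2, plakophilin 2 of the desmosome plaque, fell to 41.3, 34.8 and 30.9 in gammaB8, against line means of 20.4 to 400.4 (−1.42, SE 0.24, adjusted p 0.0274). The 19 other arrays ran from 4.13 to 400.4, so some lay below gammaB8. Pbrm1, the polybromo subunit of a chromatin remodelling complex, fell by 1.06 (SE 0.18, adjusted p 0.0283), at 433, 220.2 and 251. Zfp105, a zinc finger protein, and Sult4a1, a sulfotransferase of the brain, rose by 1.11 and 1.17. A dimmer probe set of Col3a1, the alpha chain of type III collagen, rose by 1.32, at 172, 189 and 168 in gammaB8, against 7.16 to 206 elsewhere.

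The 2 numbered gammaB8 arrays, set against the numbered arrays of A2B1, A2C12, B3, cRAF_cMYC and gammaA7, gave many more calls. A2B1 has 1 numbered array and counted as much as each other line. The test measures the spread between repeat arrays of a line and not that among lines. A call therefore does not place gammaB8 outside the range of the other lines. Of 7215 probe sets 156 were called (2.16%), 63 higher (0.873%) and 93 lower (1.29%), and of 5496 genes 128 (2.33%), 52 higher (0.946%) and 76 lower (1.38%). Genes named from here to the end of the paragraph on falls were chosen after their values were seen, as the largest changes or as members of gene lists. Each is given with the unnumbered gammaB8 array first, since 77 of the 128 genes (60.2%) had the same sign between the unnumbered arrays of the same lines, 13 (10.2%) were 2-fold apart there the same way, and 2 were 2-fold apart the other way. By sign these were 34 of the 52 higher genes and 43 of the 76 lower ones. For the other lines handled alike, the same-sign share was 95.3% of 317 genes in A2C12, 76.7% of 73 in B3, 81.8% of 11 in cRAF_cMYC and 90% of 10 in gammaA7. The shares of cRAF_cMYC and gammaA7 rest on few genes and on replicates that went together across these lines, so they are not comparable with the others. Over all 5496 genes the 2 sets of gammaB8 differences had a Pearson coefficient of 0.134, given as a description across genes, which are not independent. The same coefficient was 0.71 for A2C12, 0.318 for B3, 0.448 for cRAF_cMYC and 0.0905 for gammaA7, the last 2 again with replicates that crossed lines.

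**Figure D3:**
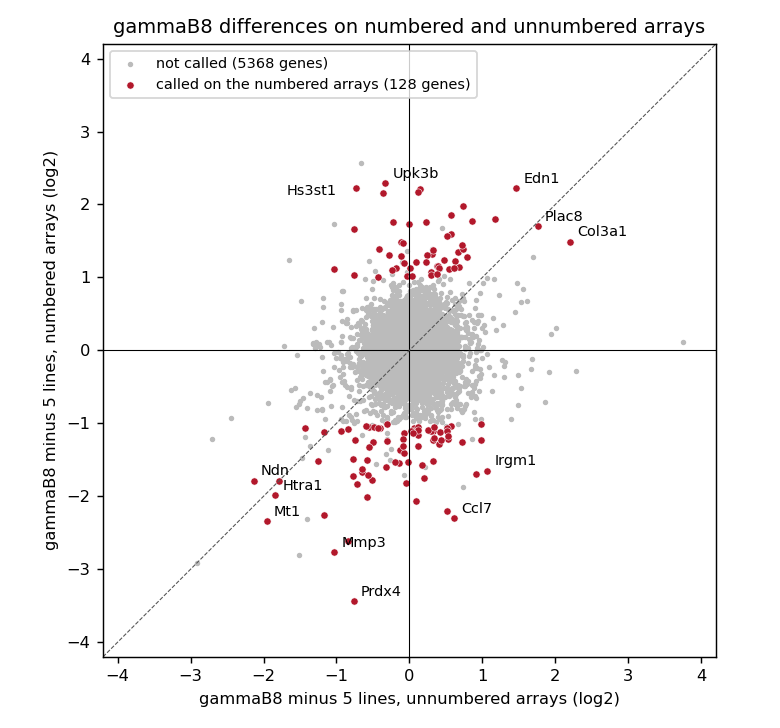
Difference of gammaB8 from the same 5 lines (log2) for 5496 genes, between unnumbered arrays on the x axis and between numbered arrays on the y axis, with the 128 genes called on numbered arrays in red and all others in grey. Of the red points 13 lie at least 2-fold out on both axes with the same sign, and Irgm1 and Flt4 lie 2-fold out with opposite signs.

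Several genes were brighter on the numbered gammaB8 arrays than on the unnumbered one and than the means of the 5 lines. Upk3b, uroplakin 3B, read 451 on the unnumbered array but 7465 and 7149.5 on replicates 1 and 2, against means of the 5 lines from 45.3 to 4821 (2.29, SE 0.49, adjusted p 0.0178). It was bright elsewhere too, at 5275 and 5132 on replicate 1 of cRAF_cMYC and of gammaA7. Hs3st1, which adds a sulfate to heparan sulfate, read 2.64, 268 and 288, against 1.22 to 84.2 (2.23, SE 0.12, adjusted p 6.82e-05). Lrp2, the endocytic receptor megalin, read 23.5, 274 and 313, against 19.2 to 61.0 (2.15, SE 0.21, adjusted p 0.000837). The Wnt ligand Wnt4 read 3.27, 213 and 193, against 8.71 to 176 (1.66). Hyaluronan synthase 1 (Has1) read 25.5, 245 and 205, against 11.1 to 128 (1.75). The basal keratin Krt17 read 6.36, 151 and 132, against 6.15 to 37.7 (1.74). All 6 were called on the numbered arrays, and on the unnumbered array none of the 6 exceeded the highest of the other 10 unnumbered arrays. The calls of Upk3b and Krt17 were lost with either gammaB8 replicate left out, and Upk3b was 1.22 without the A2C12 line, where it was dimmest.

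Spata13, an activator of the small GTPases Rac and Cdc42, read 154, 836 and 987, against 115 to 285 (2.18, SE 0.11, adjusted p 6.82e-05). Cad, the enzyme that starts pyrimidine synthesis and a known Myc target, read 285, 840.2 and 721, against 68.8 to 426 (1.31, SE 0.11, adjusted p 0.000438). Smtn, smoothelin of contractile cells, read 191, 748 and 521, against 142 to 255 (1.48). Itga3, the alpha 3 chain of a laminin-binding integrin, read 132, 362 and 389.8, against 95.5 to 167 (1.38, SE 0.25, adjusted p 0.0107). Here too the numbered arrays alone were above the other lines. For Plac8 and Col3a1 the unnumbered array differed the same way. Plac8, a small cysteine-rich protein, read 12874, 10074 and 8294, against 412 to 9095 on numbered arrays of the 5 lines (1.71, SE 0.09, adjusted p 6.82e-05). Between unnumbered arrays its difference was 1.76 against the same 5 lines and 1.07 against all 10. Lines with 1 array overlapped with gammaB8, among them betaD5 at 12553, gammaD1 at 11199, gammaA3 at 9814 and gammaD12 at 9480. So did A2B1, 1 of the 5 lines, whose numbered array (9095) and unnumbered array (8990) exceeded gammaB8 replicate 2. Col3a1 read 1043, 1849 and 1626, against means of the 5 lines from 195 to 1527 (1.49, SE 0.27, adjusted p 0.00993), and its difference was 2.20 between unnumbered arrays of these lines. Single arrays overlapped: replicate 1 of cRAF_cMYC (2103) exceeded both numbered gammaB8 arrays, and that of gammaA7 (1682) lay between them. Decorin (Dcn), a small matrix proteoglycan, read 2524, 5317 and 4892, against 24.5 to 7603 (1.77, SE 0.13, adjusted p 0.000359), and the brightest of the others exceeded gammaB8. Peg3, an imprinted zinc finger protein read from the paternal copy, read 971, 1906 and 2661, against 7.68 to 1082 (2.21, SE 0.37, adjusted p 0.00732). Between unnumbered arrays of the same lines Dcn and Peg3 differed by 0.86 and 0.15. Left-out arrays bear on several of these. Cad was 0.88 without A2B1, and Dcn and Peg3 were 0.59 and 1.30 without A2C12, none of them called. The calls of Peg3, Col3a1 and Itga3 were lost with either gammaB8 replicate left out, at differences of the same sign.

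The falls on the numbered arrays included matrix enzymes, signalling inhibitors, chemokines and metal-binding proteins. Mmp3, the protease stromelysin 1, read 141 on the unnumbered gammaB8 array and 54.7 and 57.4 on the numbered ones, against 245 to 836 in the 5 lines (−2.77, SE 0.08, adjusted p 3.07e-06). Mt1 and Mt2, the metallothioneins that bind zinc and copper, read 125, 344 and 337 and 164, 396 and 339, against 1048 to 2703 and 693 to 2891, and fell by 2.34 and 1.79 with adjusted p-values of 0.000126 and 6.82e-05. Against the unnumbered arrays of the same 5 lines the unnumbered gammaB8 array differed by −1.03 for Mmp3, −1.96 for Mt1 and −1.79 for Mt2, but against those of all 10 lines by −0.73, −1.06 and −1.17. Low metallothionein was shared by most lines with 1 array, with Mt1 at 41.5 in betaD5, 50.1 in betaD10, 151 in gammaD12 and 174 in gammaA3. The gammaD1 array was higher, at 680 for Mt1 and 1160 for Mt2. Over all arrays and all 10 lines they were not called, with adjusted p-values of 0.112, 0.646 and 0.504.

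Other falls were seen on the numbered arrays alone. Grem1, gremlin 1, an extracellular inhibitor of BMP proteins, read 316 on the unnumbered array and 30.8 and 14.9 on the numbered ones, against 29.2 to 556 (−2.20, SE 0.24, adjusted p 0.00149). Lpar1, a receptor for lysophosphatidic acid, read 192, 11.7 and 9.36, against 71.3 to 264 (−2.07, SE 0.26, adjusted p 0.00226). Ccl7, a chemokine that draws monocytes, read 3853, 573 and 79.0, against 925 to 1681 (−2.30, SE 0.48, adjusted p 0.0168). Cnn1, calponin 1 of smooth muscle, read 295, 22.3 and 15.9, against 22.8 to 216 (−1.50). Irgm1, an interferon-induced GTPase, read 626, 44.6 and 35.6, against 86.6 to 703 (−1.65, SE 0.21, adjusted p 0.00273), and between unnumbered arrays it was 1.07 higher in gammaB8. The glutathione transferase Gstm2 read 2057, 374 and 354, against 632 to 2167 (−1.23), and stem cell factor (Kitl) read 699, 195 and 270.2, against 469 to 787 (−1.22). Without A2B1 the Gstm2 difference was −0.92, and the call of Kitl was lost with either gammaB8 replicate left out. Without the A2C12 line neither Kitl (−1.11, adjusted p 0.0573) nor Ccl7 (−2.19, adjusted p 0.0513) was called. In each of these 7 genes the unnumbered gammaB8 array was within the range of the other 19 arrays. The 2 lines with crossing replicates bear on this comparison too: without cRAF_cMYC and gammaA7, 240 of 5496 genes were called (4.37%), 119 of them among the 128, and 136 of the 240 (56.7%) had the same sign between unnumbered arrays.

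Genes at least 2-fold apart from the 5 lines the same way on both sets of arrays, whether called or not, numbered 22, which was 13.3% of the 166 genes 2-fold apart on numbered arrays and 20.2% of the 109 on unnumbered arrays. Another 4 were 2-fold apart in opposite ways. Those described here outside the called genes were chosen after their values were seen. Of the 22, 5 were higher in gammaB8 (Plac8, Col3a1, Edn1, Adcy7 and Aldh1a1, an enzyme that makes retinoic acid) and 17 were lower, and 13 had been called on the numbered arrays. The call of Edn1 or of Adcy7 there was lost without replicate 1 or 2 of gammaB8 or of B3 or without the A2C12 line, and that of Edn1 also without either numbered A2C12 array. Cd34, Ndn, Htra1, Mmp3, Mt1 and Mt2 were among the lower ones. Prdx4 was not, with −0.76 between unnumbered arrays. Has2, hyaluronan synthase 2, was nearly level, at 81.8, 79.6 and 73.0 in gammaB8, against a lowest of 27.2, a median of 265 and a highest of 908 on the other 19 arrays (−1.52 on numbered and −1.26 on unnumbered arrays). It was low on all 3 arrays, while its sister enzyme Has1 was high on the numbered 2. Bmp4, a ligand of the BMP family, read 103, 254 and 254, against 88.0 to 1570.2, with differences of −1.47 and −1.48 that did not pass the test. Tsc22d1, a leucine zipper protein induced by TGF-beta, read 674, 636 and 878, against 622 to 2091 (−1.12 and −1.17, adjusted p 0.00273 on numbered arrays). Fhdc1, a formin, read 13.7, 40.9 and 25.4, against 38.8 to 172 (−1.06 and −1.44, adjusted p 0.0125). Pdgfra, a receptor for platelet-derived growth factor, read 27.7, 85.9 and 63.8, against 28.7 to 657, and was not called.

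Of 10 mesothelial genes listed, 6 are on the array and 5 were tested. Of the 5, 2 rose on the numbered gammaB8 arrays, where 0.946% of all genes were called higher and 2.33% either way. The untested gene, Calb2 (calretinin), was dim on all 3 gammaB8 arrays, at 12.004, 13.304 and 14.976, inside the range of the other lines' means. The median difference of the 5 was 1.39 on numbered arrays and −0.04 between unnumbered arrays, where the medians of all genes were 0.01 and 0.01. The summed signal of the 6 was 1628 on the unnumbered gammaB8 array, 13824 on replicate 1 and 13614 on replicate 2, against 419 to 9892 on the other 19 tumour arrays, the highest being replicate 1 of cRAF_cMYC (9892) and of gammaA7 (9811), and 4451 and 3556 in the control cells. Mesothelin (Msln) rose, at 327, 1447 and 1499, against 79.2 to 1709 in the 5 lines (1.39, SE 0.10, adjusted p 0.00034), and Upk3b was described above. Without the A2C12 line, Msln was 0.79 and Upk3b 1.22 higher, and neither was called. Keratin 19 (Krt19), which mesothelium shares with many epithelia, read 373, 4378 and 4259, against a lowest of 111, a median of 561 and a highest of 2927 on the other 19 arrays, and 3569.7 and 2229.9 in the control cells. Its numbered difference was 2.56 (SE 0.81) with an adjusted p of 0.0655. The next brightest tumour arrays for Krt19 were replicate 1 of gammaA7 (2927) and of cRAF_cMYC (2902), the arrays that were also nearest to gammaB8 replicate 1 outside its line. Wt1 read 105, 227 and 235, against 20.4 to 226, and Bnc1, basonuclin 1, read 361, 294 and 457, against 11.0 to 1174; neither was called. The part of mesothelial cells in the differences of the numbered arrays was not tested.

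**Figure D4:**
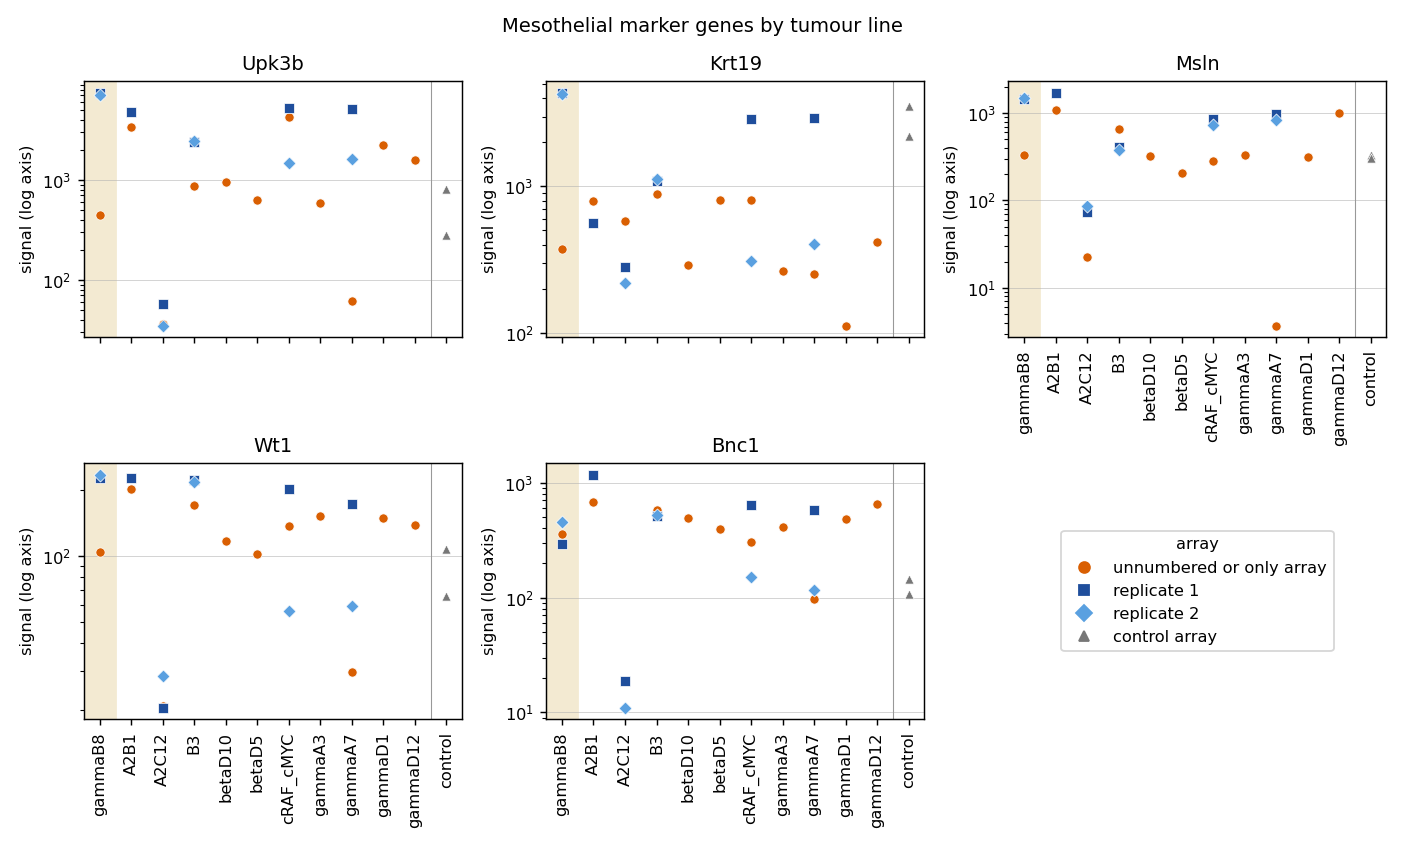
Signal (y axis, log scale, array units) of 5 mesothelial genes on every array, gammaB8 shaded at the left and the control cells at the right. The numbered gammaB8 arrays are the highest tumour arrays for Upk3b (7465 and 7149.5) and Krt19 (4378 and 4259), while the unnumbered one reads 451 and 373.

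The distance between the unnumbered array and the numbered arrays of a line was then compared between gammaB8 and the 5 lines with both kinds. In gammaB8 220 of 5496 genes were at least 2-fold higher on the unnumbered array and 159 at least 2-fold lower. Against the same distance in the 5 lines, 1 probe set was called (0.0139%), that of Prdx4 (2.67, SE 0.34, adjusted p 0.0189), and 748 had an unadjusted p under 0.05. That call was lost without gammaB8 replicate 2 (2.28, adjusted p 0.0865) and without the unnumbered array or replicate 2 of A2C12, replicate 1 or 2 of B3, or the unnumbered array of cRAF_cMYC (2.60 to 2.67, adjusted p 0.0514 to 0.0666). The genes with large distances named here were not called with all 5 lines: the growth factor Igf1 read 3166 on the unnumbered array and 261 and 106 on the numbered ones (adjusted p 0.316), the acute-phase protein Saa3 1593, 257 and 33.1 (adjusted p 0.787), and the immediate early gene Fos 869, 99.0 and 39.8 (adjusted p 0.606). Without cRAF_cMYC and gammaA7, 71 probe sets (0.984%) and 59 genes (1.07%) were called, 33 genes higher on the unnumbered array (0.6%) and 26 lower (0.473%). The largest of these were Krt19 (−3.86, SE 0.45, adjusted p 0.00938), Igf1 (3.70, SE 0.59, adjusted p 0.0286) and Upk3b (−3.19, SE 0.43, adjusted p 0.0123), followed by the small membrane protein Cystm1 (−3.11, SE 0.32, adjusted p 0.00938), Hs3st1 (−3.06), Irgm1 (3.02) and Pdgfrb (2.94). The passage of the cells on each array is not given in the labels read here.

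Myc and the readouts of growth signalling gave little that set gammaB8 apart. Myc read 309, 429 and 464 in gammaB8, against a lowest of 85.8, a median of 343 and a highest of 516 on the other 19 arrays, and 283 and 79.8 in the control cells. It lay inside the range of the other lines on all 3 arrays (0.29, SE 0.25, adjusted p 0.679), and 0.58 higher on numbered arrays (adjusted p 0.0154), under 2-fold. The lowest value, 85.8, was the 1 numbered array of A2B1, whose unnumbered array read 361. The numbered arrays of A2C12 (516 and 462) and B3 (407 and 437) overlapped with gammaB8. Of 26 tested cell cycle genes none was called, with a median of 0.33 on numbered arrays and −0.23 between unnumbered ones. Of 20 Myc targets 1 rose on numbered arrays (Cad), with medians of 0.28 and −0.06. Of 13 outputs of the MAP kinase pathway 1 rose on numbered arrays (Dusp1, a MAP kinase phosphatase, at 1581, 789.8 and 707, against 217 to 713 in the 5 lines), with medians of 0.14 and −0.07. Dusp6, the phosphatase that ERK induces, read 909, 2227 and 2029, against 403 to 1759, and was not called (adjusted p 0.0894 on numbered arrays). Without cRAF_cMYC and gammaA7 the Dusp1 difference was 0.84, under 2-fold.

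Of 33 pathway lists 20 had at least 1 called gene on the numbered arrays, and over all arrays 1 did, the imprinted genes, through Ndn. Of 17 tested interferon-response genes 2 fell on numbered arrays (Irgm1 and Ifitm3), with a median of −0.39, and the median between unnumbered arrays was 0.86, a contrast not tested for the list. Isg15, a ubiquitin-like protein that interferon induces, read 311 on the unnumbered gammaB8 array and 77.3 and 10.0 on the numbered ones, against a lowest of 5.80, a median of 16.1 and a highest of 630.3 elsewhere. The guanylate-binding proteins Gbp2 and Gbp3 read 121, 24.3 and 25.6 and 124, 18.2 and 20.2, against medians of 29.1 and 18.5. For these 3 the unnumbered gammaB8 array was above both numbered ones and inside the range of the other arrays, and none of the 3 was called. Of 12 chemokines and cytokines 3 fell on numbered arrays (Ccl7, Cx3cl1 and Cxcl12), with medians of −0.51 on numbered and 0.53 between unnumbered arrays. Cxcl12, which guides stem cells and lymphocytes, read 2273, 861 and 726, against 237 to 3421.

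Of 22 glutathione and peroxide genes 3 fell on numbered arrays, all glutathione transferases: Gstt1 at 17.7, 7.01 and 12.2, Gstm1 at 1972, 798 and 539.8, and Gstm2. The median of the list was −0.33 on numbered arrays and −0.09 between unnumbered ones. Of 18 TGF-beta and BMP genes 3 fell (Grem1, Ltbp1 and Id3) and 1 rose, Inhba, the beta A chain of activin, at 479, 531 and 315, against 57.1 to 504. Id3, an inhibitor of basic helix-loop-helix factors induced by BMP proteins, read 1002, 531 and 419, against 684 to 3073, with the numbered arrays below all 19 others. Of 12 fibrillar collagen and cross-linking genes 1 rose (Col3a1), with medians of 0.30 and 0.70. Of 11 imprinted genes 2 rose on numbered arrays (Dcn and Peg3) and 1 fell (Ndn). Peg3 and Ndn, both read from the paternal copy, went opposite ways, and Igf2, at 31.3, 78.1 and 52.6, against 12.9 to 760.4, was not called. None of 18 glycolysis and hypoxia genes and none of 13 sterol synthesis genes was called, over all arrays or on numbered arrays. None of the 7 tested genes of epithelial junctions and keratins was called either, Krt19 being the nearest with the adjusted p of 0.0655 given above. Several of these list members lost their call with arrays left out. Without A2B1 the differences of Ifitm3, Gstm1, Cxcl12 and Inhba were −0.97, −0.81, −0.81 and 0.82. The call of Cxcl12 was also lost without the cRAF_cMYC line (−0.98), without gammaA7 replicate 1 (−0.91), without either numbered array of A2C12 or B3 and without either gammaB8 replicate. Ltbp1 lost its call without the A2C12 line (−1.10) and without either numbered array of A2C12, B3 or gammaB8. Id3 was −0.91 without A2C12 and −0.95 without gammaB8 replicate 2, Gstm1 was −0.83 without gammaB8 replicate 2, and Inhba and Cx3cl1 were 0.77 and −0.97 without gammaB8 replicate 1. Members, lists and counts are read against the 2.33% of all genes called on numbered arrays.

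Prdx4 lies on the X chromosome, and X-linked genes as a whole also differed by array. The median deviation of 152 X-linked genes from their means over the tumour arrays, minus that of 5334 autosomal genes, was 0.236 (log2) on the unnumbered gammaB8 array, −0.371 on replicate 1 and −0.440 on replicate 2. On the other tumour arrays it ran from −0.358 (gammaD1) to 0.264 (gammaA3), so the unnumbered gammaB8 array was among the highest and the numbered ones were the lowest. It was also lower on numbered than on unnumbered arrays in the 5 other lines with both kinds. The unnumbered array and replicates 1 and 2 gave 0.003, −0.303 and −0.304 in B3 and 0.192, −0.225 and −0.054 in gammaA7. In A2B1 it hardly differed (0.049 unnumbered and 0.031 on replicate 1). Xist, the RNA that silences 1 X chromosome in female cells and the transcript by which a silenced X is known, read 319.8, 39.4 and 33.4 in gammaB8, against a lowest of 17.9, a median of 128 and a highest of 467 on the other 19 arrays, and 359 and 12.9 in the control cells. The numbered arrays were lower in Xist in the 5 other lines with both kinds of array too. Xist read 172 on the unnumbered array and 40.9 on replicate 1 of A2B1. The unnumbered array and replicates 1 and 2 read 152, 69.9 and 79.0 in A2C12 and 182, 128 and 79.1 in B3. They read 145, 81.4 and 25.5 in cRAF_cMYC and 158, 79.7 and 44.6 in gammaA7. Xist was not called in any comparison (adjusted p 0.641 over all arrays). On the numbered arrays 6 X-linked genes rose and 5 fell of 152, with a median difference of −0.26, against 0.15 between unnumbered arrays. The genes nearest Prdx4 on the chromosome moved far less than it did: Sat1, which acetylates spermidine, read 607, 436 and 520.1, the thioesterase Acot9 read 2154, 1076 and 1276, the translation factor Eif1ax read 1275, 902 and 881, and the pyruvate dehydrogenase subunit Pdha1 read 1504, 924 and 1156. None of these 4 was called, and on the numbered arrays their differences were −0.84, 0.01, −0.26 and −0.30, against −3.44 for Prdx4. Within gammaB8 all 4 read lower on the numbered arrays than on the unnumbered one. So did genes further out: Ubqln2 read 230, 84.1 and 73.0 and Hsd17b10 read 653, 361 and 310. Rbbp7 read 4050, 2261 and 2043 and Phka2 read 252, 142 and 107. On the numbered arrays they differed by −0.75, −0.61, −0.49 and −0.36, each under 2-fold. Xist and these neighbours were chosen after their values were seen. The part of the X chromosome's copy number or silencing in the Prdx4 difference was not tested.

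**Figure D5:**
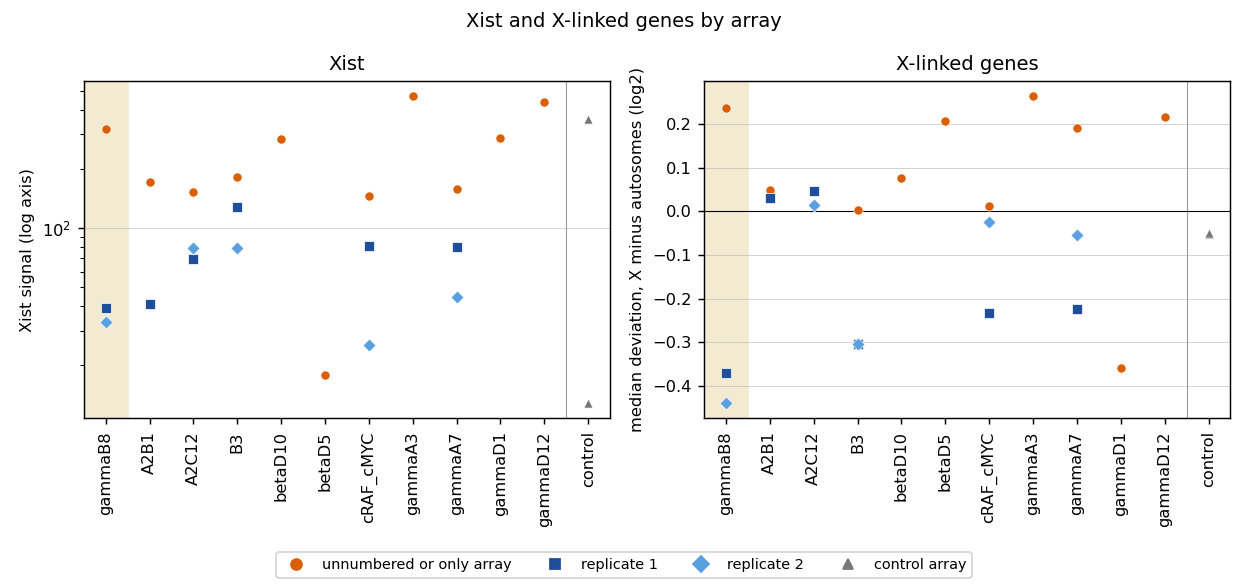
Xist signal (left, y axis on a log scale, array units) and the median deviation of X-linked minus autosomal genes (right, log2) on every array, with gammaB8 shaded at the left and the control cells at the right. The unnumbered gammaB8 array stands at 319.8 and 0.236, and replicates 1 and 2 at 39.4 and −0.371 and at 33.4 and −0.440.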

How the data were processed

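RNA was hybridised to Affymetrix mouse arrays, and the authors deposited 1 linear intensity value for each probe set and array, computed with GCOS per the submitters' processing notes. On all 24 arrays the 2% trimmed mean was about 250, so the arrays had been scaled to 1 level; no source used here gives the background steps. Of 12488 probe sets 66 controls were left out. Of the 12422 kept, 10833 pair with 1 gene symbol, 396 with several and 1193 with none, and the 7215 above their array's median on at least 2 of 22 tumour arrays were tested.

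Values were log2(signal + 32). Each line had its own mean in limma 3.58.1 (R 4.3.3), with Benjamini-Hochberg adjustment over all 7215 probe sets, and gammaB8 was compared with the equal-weight mean of the other lines. A line's mean signal is the back-transformed log2 mean. Calls need an adjusted p under 0.05 and a 2-fold difference. Genes with several probe sets take the brightest. Genes were named as called over all arrays, as each list's largest change, as the transgene Myc, as lying outside all other arrays, or by the distance between unnumbered and numbered arrays; all others were chosen after their values were seen. The members and lists were chosen with earlier results of these data known. The script was tested on simulated data. Precision is limited by the number of arrays.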

Additional observations from a re-analysis of the deposited data

Results flagged for a closer look

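Prdx4 stood out because its distance between the unnumbered and the numbered arrays differed between lines. On the log2 scale the unnumbered gammaB8 array was above the mean of the numbered gammaB8 arrays, and this distance exceeded the mean distance in the 5 other lines with both kinds of array by 2.67 (SE 0.34, adjusted p 0.0189 by limma). The signals were 519.7 on the unnumbered gammaB8 array and 68.4 and 26.6 on the numbered ones, against 658.8 to 1176 over all arrays of those 5 lines.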

How the results depend on the processing

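The comparison with all 10 lines gave 7 called probe sets. The count was 11 with an offset of 1 and 2 with an offset of 100, 4 at 3-fold, 156 on numbered arrays alone and 0 on unnumbered arrays alone, where gammaB8 has 1 array, 18 against the 5 other lines with 2 or 3 arrays, and 20 without cRAF_cMYC and gammaA7, a setting chosen after seeing the data. With the replicate number as a block it was 11. Whether the numbers pair the arrays is not settled: correlations of same-numbered arrays' deviations, all above 0, ran from 0.0621 to 0.686 for replicate 1 (6 of 10 pairs over 0.1), 0.0622 to 0.713 for replicate 2 (8 of 10) and 0.182 to 0.547 for the unnumbered arrays (10 of 10). The block also brought Plac8 past the threshold (1.05, adjusted p 0.0409), and on numbered arrays Cxcl12 was −0.97 with it, under 2-fold. Leaving out 1 array or line gave 0 (without gammaB8 replicate 1 or 2) to 102 (without the unnumbered gammaB8 array); without the lines A2C12, gammaA7 or cRAF_cMYC it was 3, 11 and 12. Other settings stayed within 1.5 times.

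With line means the count of 1 was 3 with an offset of 1, and 0 (without gammaB8 replicate 2) to 7 (without the unnumbered gammaB8 array) with 1 array or line left out. For the distance between unnumbered and numbered arrays the count of 1 was 3 with arrays centred or quantile-normalized, 4 at offsets of 1 and 100 and without a variance trend, 14 with a floor of 32, 2 with no filter and 71 without cRAF_cMYC and gammaA7. It was 0 (without the unnumbered A2C12 array) to 38 (without the unnumbered gammaA7 array) with 1 array or line left out. Without the unnumbered gammaB8 array it could not be fitted.

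On numbered arrays, settings added after seeing the data, the count of 156 was 264 with an offset of 1, 74 with an offset of 100, 236 with a floor of 32, 581 at 1.5-fold, 44 at 3-fold, 313 without cRAF_cMYC and gammaA7, 172 with the replicate block, and 103 to 212 with 1 array or line left out. No difference turned its direction in a call. The causes were not tested.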
